A study of Mus musculus with 6 samples.

Results

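Cholesterol is made from acetyl-CoA, moved within the cell, stored as esters and exported, and 31 genes for these steps were followed among the 20071 Ensembl gene IDs of the deposited count table. They were taken by gene symbol, 1 row for each symbol, from textbook membership of the pathway, with earlier results of these data known. All 31 were in the table, and all 31 passed the filter on low counts that left 13733 genes for testing. They comprised 18 enzymes of synthesis, 4 genes of SREBP2 and its control, 4 genes of transport and storage inside the cell, and 5 genes of the LXR receptors and their targets.

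The cells were bone marrow mesenchymal stem cells (MSCs), stromal cells that can become osteoblasts, adipocytes or chondrocytes, taken from femurs of 6-week-old mice. The control genotype was Pcif1fl/fl (labelled WT), in which loxP sites flank exons 5 to 7 of Pcif1, the gene of the methyltransferase that forms m6Am next to the mRNA cap. The other genotype was Prrx1-Cre;Pcif1fl/fl (labelled Pcif1 CKO), which carries the same floxed alleles and a Cre recombinase expressed in limb mesenchyme. They are written fl/fl and Cre;fl/fl from here on. Both were cultured for 7 days in an osteogenic medium that held dexamethasone at 100 nM, β-glycerophosphate at 5 mM and ascorbic acid at 50 μg/mL, and poly(A) RNA was sequenced from 3 libraries of each. The series' design speaks of biological duplicates, whereas the labels and the table hold these 3 libraries, and the sources do not say whether each library came from its own animal, so p-values measure the spread between libraries. Levels are given in CPM, counts scaled to a common library size with edgeR's TMM factors, and differences as log2 fold changes of Cre;fl/fl over fl/fl MSCs.

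In textbook terms, sterol synthesis is governed by feedback. When sterol in the endoplasmic reticulum is low, SCAP carries the transcription factor SREBP2 to the Golgi, where it is cut and released to the nucleus, and it then raises the genes of nearly every synthetic enzyme. When sterol is plentiful, INSIG proteins hold SCAP back, while oxysterols activate the LXR receptors, which raise the export pumps ABCA1 and ABCG1. The genes of INSIG1 and of SREBP2 itself are targets of SREBP2. In bone marrow stromal cells, certain oxysterols are known to favour osteoblast over adipocyte formation. The arms of this circuit are therefore read separately, synthesis through SREBP2 on one side and efflux through LXR on the other.

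The libraries held between 20258209 and 28227696 counts. Replicate 3 of fl/fl stood apart, with 3.63% of its counts on mitochondrial genes against 1.40% to 1.57% in the other 5 libraries, and fold changes that it moved by over 1.5 times are also given without it for the enzymes and Npc2. The deletion could not be checked from a count per gene: Pcif1 was at 42.8, 41.7 and 39.3 CPM in fl/fl and 39.2, 37.8 and 39.7 CPM in Cre;fl/fl MSCs, and its adjusted p was 0.645. Xist, the RNA of the inactive X chromosome, was at 232 to 443 CPM in fl/fl and at 0.722 to 1.79 CPM in Cre;fl/fl libraries, while the Y-linked Ddx3y was at 48.4 to 62.2 and 99.1 to 104 CPM. Each fl/fl library thus held Xist beside Y-linked RNA, the pattern of mixed female and male cells rather than of a single animal. The Cre;fl/fl libraries held Y-linked RNA with little Xist. Sex composition and genotype therefore cannot be told apart in these libraries. Genes of macrophages, cells outside the limb mesenchyme in which Prrx1-Cre is expressed, were abundant in every library, with Lyz2 at 21980 to 26230 CPM.

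Of the 31 genes, 9 were up-regulated at an adjusted p under 0.05 (quasi-likelihood F test of edgeR, adjusted by Benjamini-Hochberg over all 13733 genes), where 2.88% of all genes were. They were 7 enzymes of synthesis (Hmgcs1, Fdft1, Sqle, Lss, Cyp51, Msmo1 and Sc5d), the feedback gene Insig1 and the cholesterol carrier Stard4. One gene, the LXR receptor Nr1h3, was down-regulated, where 4.51% of all genes were. None of the 31 passed an adjusted p under 0.05 together with a change of 1 or more on the log2 scale in either direction, limits that 3.53% of all genes passed, whereas with DESeq2 1 gene did, Fdps at 1.05. An unadjusted p under 0.05 was found for 16 of the 31, and for 21.4% of all genes. With DESeq2 10 were up-regulated and 1 down-regulated, and with limma-voom 9 and 1. The median log2 fold change of the 18 enzymes was 0.43, of the 5 LXR genes -0.19 and of all genes tested 0.0017. Each of the 18 enzymes had a log2 fold change above 0, and without fl/fl replicate 3 this held for 17, with Ebp at -0.012.

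Every Cre;fl/fl library was above every fl/fl library in 16 of the 31 genes, 13 of them enzymes, where 15.0% of all genes were arranged this way. The reverse held for 4 genes, Soat1, Nr1h3, Abcg1 and Mylip, where 15.7% of all genes were arranged this way. Within each library, the median position of the 18 enzymes against the fl/fl mean on the log2 scale was 0.087, 0.0045 and -0.092 in fl/fl replicates 1 to 3 and 0.45, 0.50 and 0.50 in Cre;fl/fl replicates 1 to 3. That of the 5 LXR genes was between -0.017 and -0.0044 in fl/fl and at -0.077, -0.25 and -0.094 in Cre;fl/fl libraries. The median of the enzymes was thus alike in the 3 Cre;fl/fl libraries, and Cre;fl/fl replicate 2 set the lower end of the LXR genes. Single enzymes differed in these libraries, with Hsd17b7 at 0.087 to 0.13 and Msmo1 at 0.72 to 0.89.

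**Figure D1:**
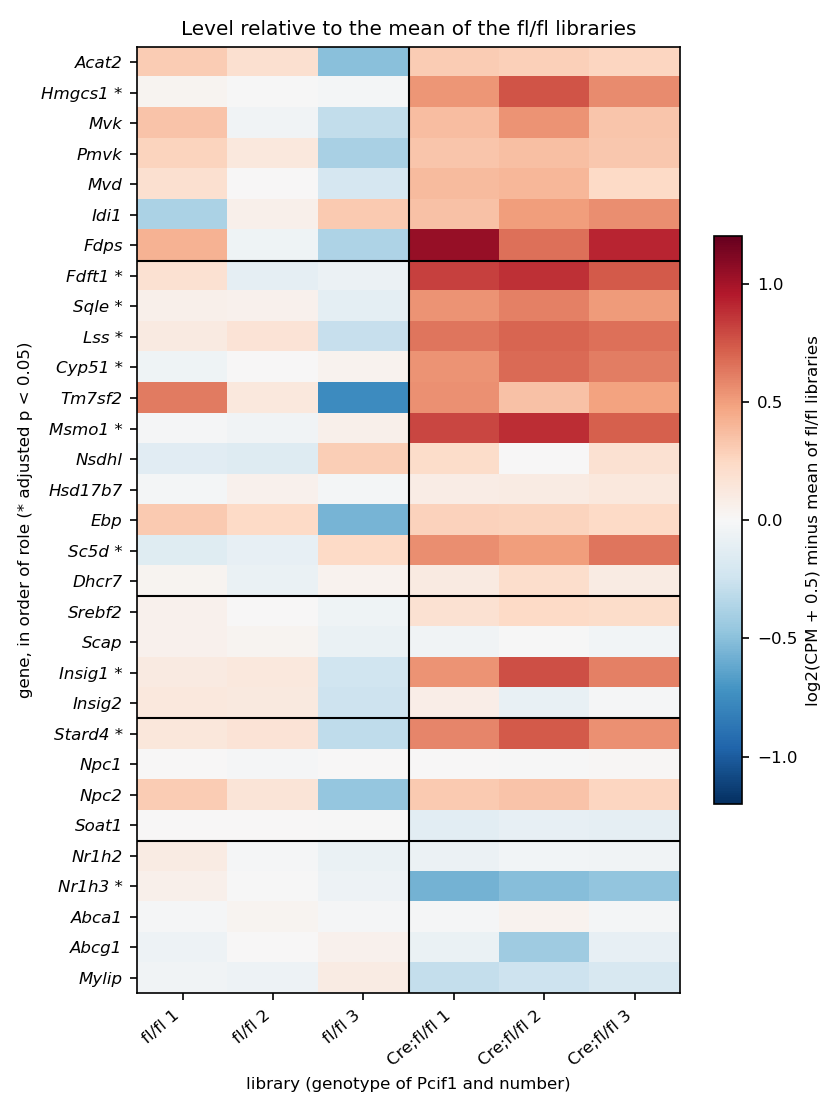
Level of each of the 31 genes (rows, grouped by role with black lines) in each of the 6 libraries (columns), as log2(CPM + 0.5) minus the mean of the 3 fl/fl libraries, with red above and blue below that mean and an asterisk for an adjusted p under 0.05. The enzymes of the upper 2 blocks are mostly red in the 3 Cre;fl/fl libraries, the LXR genes at the bottom are pale or blue, and fl/fl replicate 3 is the lowest of all 6 libraries in 18 of the 31 genes.

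Sequences upstream of the start sites show which letters the genes share beyond their pathway. RefSeq promoters (GRCm38.p6) were at hand for 25 of the 31 genes, and Abcg1, Fdft1, Fdps, Npc1, Sqle and Stard4 had no entry. In the 250 bases before a start, 3 short motifs were searched on both strands: CCAAT, the box bound by NF-Y, a factor known to work beside SREBP2; CACGTG, an E-box that SREBPs can bind; and TCACNCCAC, the core of a sterol response element. None of the 3 contains another. CCAAT was found in 80.0% of the 25 genes, in 14 of the 15 synthesis enzymes with an entry and in all 6 up-regulated genes with an entry, against 40.6% of the 10686 tested genes and 37.5% of all 27025 genes with an entry. The E-box was in 24.0% of the 25 against 9.74% of tested genes and 6.86% of all, and the sterol element core in 1 gene, Hmgcs1, or 4.00%, against 1.24% of tested genes and 1.23% of all.

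The upstream windows of 6 genes with a call are printed 5′ to 3′ along the gene's strand, 5 from up-regulated genes and 1 from the down-regulated gene, to show which of them hold the motif letters. Capitals mark the 3 motifs, and a CCAAT box on the other strand reads ATTGG. Each window starts 250 bases before a RefSeq start and ends where the start or an annotated exon of the gene begins, and that of Msmo1 is left out because an exon begins early in it. Hmgcs1 is chr13:119690101-119690350 on the plus strand, Sc5d is chr9:42264301-42264550 on the minus strand, Insig1 is chr5:28071162-28071362 on the plus strand, Cyp51 is chr5:4104747-4104947 on the minus strand, Lss is chr10:76531355-76531587 on the plus strand, and Nr1h3 is chr2:91195152-91195366 on the minus strand, before the farther upstream of its 2 RefSeq starts.
Hmgcs1: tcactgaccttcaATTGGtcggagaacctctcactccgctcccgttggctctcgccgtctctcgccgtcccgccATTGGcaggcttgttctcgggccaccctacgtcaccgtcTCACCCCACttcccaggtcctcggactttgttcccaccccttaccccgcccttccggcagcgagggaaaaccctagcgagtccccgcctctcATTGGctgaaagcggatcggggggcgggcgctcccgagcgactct
Sc5d: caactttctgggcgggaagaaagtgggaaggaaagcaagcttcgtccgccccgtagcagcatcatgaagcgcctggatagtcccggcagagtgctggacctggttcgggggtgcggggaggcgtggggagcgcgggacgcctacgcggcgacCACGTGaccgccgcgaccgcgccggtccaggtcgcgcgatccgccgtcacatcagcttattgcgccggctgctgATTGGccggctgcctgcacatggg
Insig1: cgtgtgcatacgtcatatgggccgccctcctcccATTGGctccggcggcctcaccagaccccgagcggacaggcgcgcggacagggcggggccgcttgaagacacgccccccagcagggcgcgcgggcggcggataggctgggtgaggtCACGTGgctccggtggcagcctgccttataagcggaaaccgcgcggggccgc
Lss: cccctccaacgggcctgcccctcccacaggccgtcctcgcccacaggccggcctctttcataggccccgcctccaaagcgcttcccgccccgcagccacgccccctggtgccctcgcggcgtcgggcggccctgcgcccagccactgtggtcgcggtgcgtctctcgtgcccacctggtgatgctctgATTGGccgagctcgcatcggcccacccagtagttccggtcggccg
Cyp51: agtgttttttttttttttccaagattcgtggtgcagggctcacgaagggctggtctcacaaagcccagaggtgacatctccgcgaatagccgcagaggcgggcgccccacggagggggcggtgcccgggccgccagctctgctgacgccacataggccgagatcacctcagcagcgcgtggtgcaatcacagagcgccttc
Nr1h3: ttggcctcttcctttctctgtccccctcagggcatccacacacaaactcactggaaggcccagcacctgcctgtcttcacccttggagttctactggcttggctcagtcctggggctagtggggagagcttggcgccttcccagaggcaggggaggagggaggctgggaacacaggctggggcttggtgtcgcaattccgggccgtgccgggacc

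Hmgcs1 held 3 CCAAT boxes and the sterol element core, the latter at positions -137 to -129 from the start. Sc5d and Insig1 each held 1 CCAAT box and 1 E-box, with the E-boxes at -98 to -93 and -101 to -96, and Lss held 1 CCAAT box at -62 to -58. The printed windows of Cyp51 and Nr1h3 held none of the 3 motifs, and the CCAAT box of Cyp51, at -29 to -25, lies past the end of its window in an annotated exon. A match of letters is a description of the window and not evidence that a factor binds there. CCAAT is also found in enzymes that did not pass the test, such as Mvk with 5 and Hsd17b7 with 3 matches, so its presence did not separate the enzymes that passed from those that did not. PCIF1 methylates mRNAs whose first base is A, and a RefSeq start at A was found in 9 of the 25 genes (36.0%), in 3 of the 15 enzymes and in 34.1% of tested genes.

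The first steps of synthesis run from acetyl-CoA through mevalonate to farnesyl diphosphate, the branch point shared with prenyl groups and dolichol. All 7 enzymes of this stretch had a log2 fold change above 0, with a median of 0.40, and 1 of the 7 was up-regulated. That gene was Hmgcs1, which encodes the cytosolic synthase that makes HMG-CoA (chromosome 13, from 119690379 to 119708260, GENCODE M21 on GRCm38). In libraries 1 to 3 of each genotype, in the order used throughout, Hmgcs1 was at 48.8, 47.6 and 46.9 CPM in fl/fl and at 69.0, 80.8 and 71.1 CPM in Cre;fl/fl MSCs. The groups were far apart and the controls lay close together. Its log2 fold change was 0.62 (SE 0.097, adjusted p = 0.00614), or 1.54-fold. An antisense gene covers 12.1% of its exonic bases, and the sources do not state whether counting used strand.

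The other 6 enzymes of the stretch did not pass the test. Idi1, the isomerase that makes dimethylallyl diphosphate, was at 17.4, 23.9 and 28.4 CPM in fl/fl and 29.2, 32.5 and 33.7 CPM in Cre;fl/fl MSCs, with a log2 fold change of 0.45 (adjusted p = 0.176). That of Idi1 was 0.29 without fl/fl replicate 1 and 0.62 without fl/fl replicate 3. Mvd, the decarboxylase that yields the isoprene unit, was at 40.1, 35.1 and 30.4 against 45.6, 46.3 and 41.4 CPM, with a log2 fold change of 0.34 (adjusted p = 0.155). In both genes the groups did not overlap, but the control libraries spread over a wider range than the distance between the group means. Mvk and Pmvk, the kinases that phosphorylate mevalonate, had log2 fold changes of 0.40 and 0.32, and Acat2, a thiolase that joins acetyl-CoA units, had 0.25, with adjusted p-values of 0.217, 0.324 and 0.520. Their controls ran from 18.7 to 29.4, 15.5 to 24.7 and 22.8 to 40.3 CPM, and the Cre;fl/fl libraries from 29.1 to 33.7, 25.7 to 26.5 and 38.8 to 40.3 CPM, so that only Pmvk was without overlap. Without fl/fl replicate 3 the log2 fold changes of Mvk, Pmvk and Acat2 were 0.27, 0.15 and 0.037. Acat2 has a near-identical neighbour, Acat3, at 0.348 to 0.874 CPM, and reads of the pair could be divided between them.

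Fdps, which makes farnesyl diphosphate, was uncertain. It had 52, 41 and 31 counts in fl/fl and 84, 56 and 71 counts in Cre;fl/fl libraries, or 2.27, 1.51 and 1.11 against 3.78, 2.79 and 3.42 CPM. This was the lowest level per kilobase of exon of all 31 genes, and its log2 fold change of 1.04 (SE 0.29, adjusted p = 0.0673) was the highest of the 31. DESeq2 called it up-regulated. The mouse genome holds processed copies of Fdps with which reads can be shared, and a same-strand transcript covers 26.7% of its exonic bases.

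From squalene onward the enzymes are committed to sterols, and 6 of the 11 were up-regulated, where 2.88% of all genes were. They were Fdft1, Sqle, Lss, Cyp51, Msmo1 and Sc5d. The median log2 fold change of the 11 was 0.55, and their summed level was 594 to 613 CPM in fl/fl and 847 to 870 CPM in Cre;fl/fl libraries. These sums did not overlap.

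Msmo1, the sterol C4-methyl oxidase, had the smallest p-value of all 31 genes (chromosome 8, from 64718139 to 64733792). It was at 77.3, 75.9 and 81.4 CPM in fl/fl and 136.8, 145.2 and 129.2 CPM in Cre;fl/fl MSCs. Each Cre;fl/fl library was far above the highest control. The log2 fold change was 0.81 (SE 0.088, adjusted p = 0.00112), or 1.75-fold.

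Fdft1, squalene synthase, makes the first committed sterol precursor (chromosome 14, from 63145150 to 63179578). It was at 40.2, 32.7 and 33.6 CPM in fl/fl and at 62.8, 65.3 and 59.4 CPM in Cre;fl/fl MSCs. The log2 fold change was 0.82 (SE 0.11, adjusted p = 0.00328), about that of Msmo1. The antisense gene Ctsb covers 18.3% of the exonic bases of Fdft1, so that without strand some of these reads could belong to either.

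Sqle, squalene epoxidase, catalyses a rate-controlling oxidation (chromosome 15, from 59315077 to 59331192). Sqle was at 77.8, 77.1 and 68.8 CPM in fl/fl and 108.5, 113.2 and 106.7 CPM in Cre;fl/fl MSCs, a log2 fold change of 0.55 (SE 0.090, adjusted p = 0.00756). Lss, which closes squalene epoxide into lanosterol (chromosome 10, from 76531588 to 76557138), was at 51.7, 53.7 and 39.4 against 74.7, 77.9 and 76.1 CPM. Its log2 fold change was 0.66 (SE 0.13, adjusted p = 0.0169), and the lowest control was replicate 3. The groups of both genes were clear of each other.

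Cyp51, the lanosterol 14α-demethylase (chromosome 5, from 4081145 to 4104746), was at 84.1, 87.2 and 89.9 CPM in fl/fl and at 126.8, 140.0 and 133.8 CPM in Cre;fl/fl MSCs. Its log2 fold change was 0.62 (SE 0.085, adjusted p = 0.00351). Sc5d, the desaturase near the end of the pathway (chromosome 9, from 42251595 to 42264256), was at 61.9, 64.0 and 80.8 against 101.1, 97.3 and 106.9 CPM. Here replicate 3 was the highest control, and the log2 fold change was 0.56 (SE 0.12, adjusted p = 0.0258).

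The other 5 sterol enzymes did not pass the test. Hsd17b7, a 3-ketosteroid reductase, had a log2 fold change of 0.11, and Dhcr7, the reductase of 7-dehydrocholesterol, had 0.14. Their levels differed little: Hsd17b7 was at 61.1, 64.2 and 60.9 against 65.9, 66.6 and 67.8 CPM, and Dhcr7 at 50.9, 47.1 and 51.4 against 53.5, 57.5 and 53.4 CPM. The 95% intervals of these differences were -0.086 to 0.30 and -0.072 to 0.35 on the log2 scale, so increases of the size seen for Msmo1 lay outside both.

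Tm7sf2, a sterol C14-reductase, Ebp, the sterol isomerase, and Nsdhl, the C4-decarboxylase, had controls that spread widely. Libraries 1 to 3 of fl/fl gave 15.4, 10.8 and 5.63 CPM for Tm7sf2 and 52.4, 49.9 and 28.5 CPM for Ebp, while the Cre;fl/fl libraries lay at 12.7 to 14.6 and 49.8 to 51.2 CPM. The groups overlapped in both genes, and replicate 3 was the low control. The log2 fold changes were 0.38 for Tm7sf2 and 0.22 for Ebp, and 0.083 and -0.012 without fl/fl replicate 3. Without fl/fl replicate 1 they were 0.75 and 0.37. Vps51, on the same strand, covers 12.1% of the exonic bases of Tm7sf2. Nsdhl went the other way, at 39.8, 39.0 and 53.6 against 51.0, 43.9 and 49.7 CPM, and without fl/fl replicate 3 its log2 fold change rose from 0.13 to 0.29 and passed the test. Without fl/fl replicate 1 it was 0.060, and without fl/fl replicate 2 it was 0.046, and neither passed. Ebp and Nsdhl lie on the X chromosome, and the part of sex in their values was not tested.

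**Figure D2:**
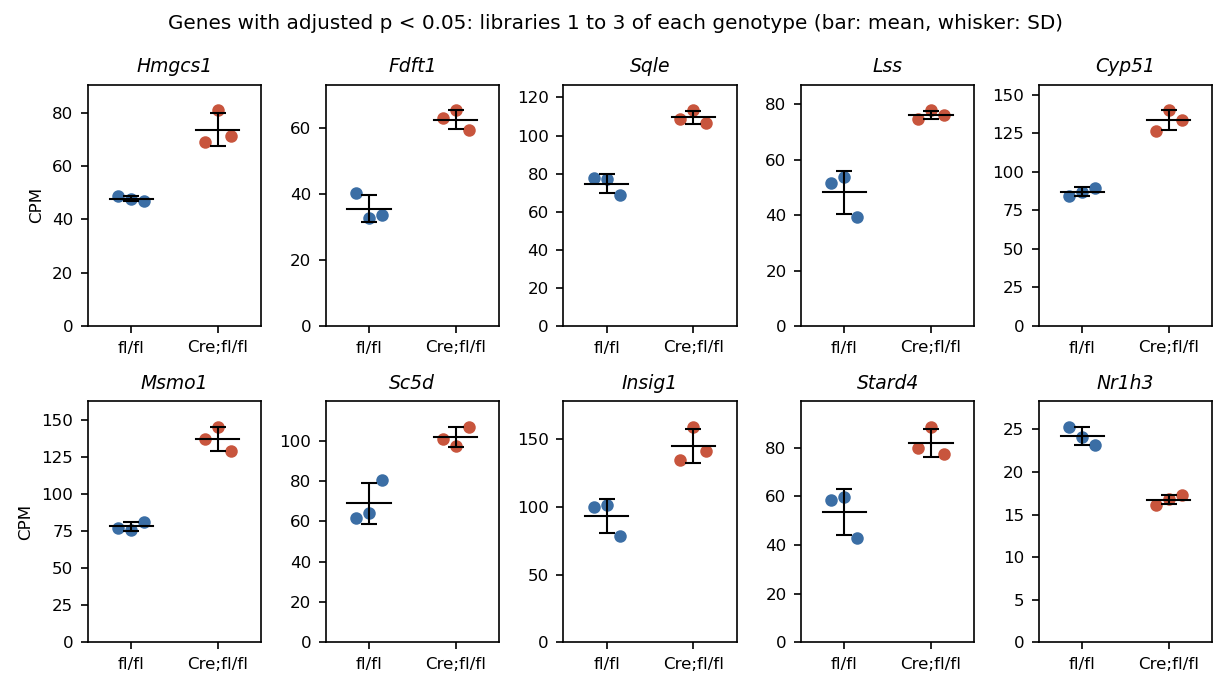
CPM of the 10 genes with an adjusted p under 0.05 in the 3 fl/fl (blue) and 3 Cre;fl/fl (red) libraries, drawn from replicate 1 on the left to 3 on the right, with the mean as a bar and the SD as a whisker (n = 3), each vertical axis starting at 0. The 2 groups of points do not overlap in any panel, and Nr1h3, with controls at 23.2 to 25.3 CPM, is the panel in which the red points are below.

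In the control of SREBP2, 1 of 4 genes, Insig1, was up-regulated. It encodes the protein that retains SCAP in the endoplasmic reticulum (chromosome 5, from 28071363 to 28078662). Insig1 was at 99.9, 101.5 and 78.7 CPM in fl/fl and 134.6, 159.2 and 141.5 CPM in Cre;fl/fl MSCs. The log2 fold change was 0.64 (SE 0.12, adjusted p = 0.0172). Its paralog Insig2, which is not a target of SREBP2, was at 44.3, 44.1 and 34.1 against 42.9, 38.1 and 40.1 CPM, and its log2 fold change was -0.015 (95% interval -0.31 to 0.28). The difference between the paralogs was not tested.

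Srebf2, the gene of SREBP2 and one of its own targets, was at 202.7, 196.0 and 188.9 CPM in fl/fl and at 222.7, 231.0 and 227.7 CPM in Cre;fl/fl MSCs. All 3 libraries were above the controls, but the log2 fold change of 0.21 (SE 0.080, adjusted p = 0.168) did not pass. Without fl/fl replicate 3 it was 0.19 and passed the test. Scap, the escort of SREBP2, was at 71.8 to 78.7 CPM in fl/fl and 74.0 to 75.7 CPM in Cre;fl/fl MSCs, a log2 fold change of -0.027 (95% interval -0.22 to 0.17). An mRNA count does not report on the cutting of SREBP2, which controls its activity.

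**Figure D3:**
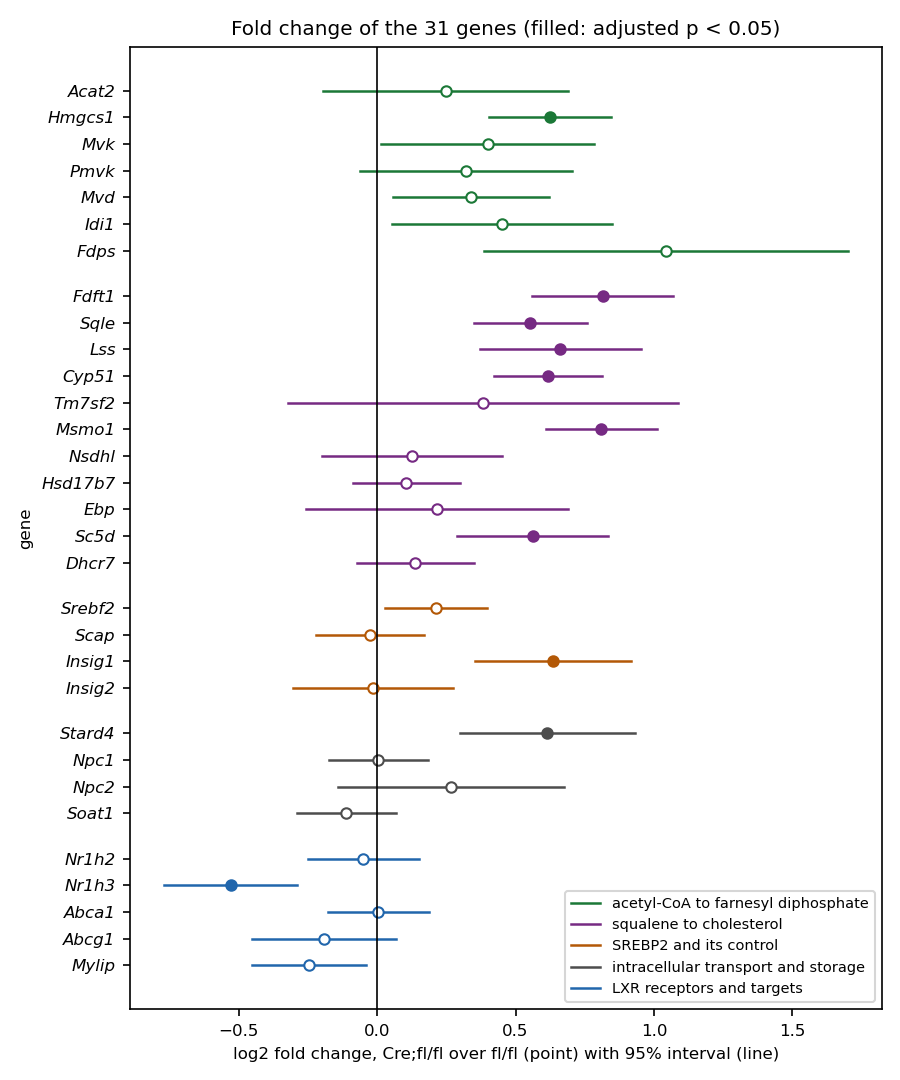
Log2 fold change (horizontal axis) of each of the 31 genes (vertical axis, coloured by role) in Cre;fl/fl over fl/fl MSCs, with the 95% interval from edgeR as a line and filled points for an adjusted p under 0.05. The filled points at the right lie between 0.55 and 0.82, Fdps at 1.04 has the interval that reaches farthest to the right, and Nr1h3 at -0.53 is the filled point on the left.

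Of the genes that move and store cholesterol inside the cell, 1 of 4 was up-regulated. Stard4, a soluble carrier of cholesterol between membranes, was at 58.4, 59.6 and 42.8 CPM in fl/fl and 80.0, 88.6 and 77.6 CPM in Cre;fl/fl MSCs, a log2 fold change of 0.62 (SE 0.14, adjusted p = 0.0330). Its controls included the low replicate 3, without which the gene still passed. Npc1 and Npc2 together release cholesterol from late endosomes and lysosomes. Npc1 was almost level, at 297.0, 292.4 and 296.3 against 295.6, 294.6 and 298.2 CPM, with a log2 fold change of 0.0045 (95% interval -0.17 to 0.18), and this sign turned with total-count scaling, to -0.018.

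Npc2 had the highest level per kilobase of exon of the 31 genes, 168 CPM per kilobase in fl/fl MSCs. It was at 1104, 996.3 and 646.5 CPM in fl/fl and 1106, 1134 and 1064 CPM in Cre;fl/fl MSCs, and only control replicate 3 was far from the rest. Its log2 fold change was 0.27 (adjusted p = 0.447), and 0.072 without that library. Soat1, which esterifies cholesterol for storage in droplets, was at 438.8, 440.7 and 435.6 against 401.4, 408.3 and 407.9 CPM. The groups did not overlap, yet the log2 fold change was small, -0.11 (SE 0.078, adjusted p = 0.468).

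In the LXR arm, none of the 5 genes was up-regulated, nor by DESeq2 or limma-voom. An unadjusted p under 0.05 was found for 2, Nr1h3 and Mylip, both with a log2 fold change below 0, and for 21.4% of all genes. Nr1h3 encodes LXRα (chromosome 2, from 91184061 to 91202834), the receptor abundant in macrophages, adipocytes and liver. It was at 25.3, 24.1 and 23.2 CPM in fl/fl and at 16.2, 16.9 and 17.3 CPM in Cre;fl/fl MSCs. Both groups were tight, and the level fell by 0.53 on the log2 scale (SE 0.10, adjusted p = 0.0191). With the replicate number as a block its adjusted p was 0.0659, and without any single library other than fl/fl replicate 3 it was 0.0572 to 0.128, at log2 fold changes of -0.53 with the block and -0.55 to -0.49 in those other fits. Nr1h2, the broadly expressed LXRβ, was at 89.6, 83.2 and 79.2 against 80.0, 82.2 and 81.3 CPM, a log2 fold change of -0.050 (95% interval -0.25 to 0.15).

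The 3 receptor targets among these 5 genes did not pass the test in either direction. Abca1, which loads cholesterol onto lipid-poor apolipoprotein, was at 361.4, 373.6 and 361.0 CPM in fl/fl and 362.2, 377.3 and 359.8 CPM in Cre;fl/fl MSCs. The groups were on top of each other, with a log2 fold change of 0.0045 (95% interval -0.18 to 0.19) that turned to -0.018 with total-count scaling. Abcg1, which exports cholesterol to mature lipoprotein particles, was at 88.2, 91.9 and 95.3 against 86.9, 68.1 and 85.9 CPM, with a log2 fold change of -0.19 (adjusted p = 0.381), and Cre;fl/fl replicate 2 was the low library. Without that library the log2 fold change of Abcg1 was -0.085. Mylip, a ubiquitin ligase that limits lipoprotein uptake, was at 83.7, 82.3 and 92.4 against 70.3, 72.5 and 75.3 CPM, with a log2 fold change of -0.25 (SE 0.090, adjusted p = 0.157).

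Cell type markers moved beside these results. Over all genes tested, 2.88% were up-regulated and 4.51% down-regulated in edgeR. Of 6 adipocyte markers tested, 4 were down-regulated (Adipoq, Plin1, Cidec and Plin4), and Adipoq was at 42.9 to 53.8 CPM in fl/fl and 0.289 to 1.49 CPM in Cre;fl/fl libraries, with Plin1 at 0 in all 3 of the latter. The summed level of the adipocyte list was 167 to 183 and 112 to 132 CPM. Fabp4, the largest single part, was higher in every Cre;fl/fl library, at 66.3 to 78.8 against 85.3 to 107 CPM (log2 fold change 0.46, adjusted p = 0.0545 in edgeR), and DESeq2 called it up-regulated. Of 15 macrophage markers, 1 (Fcgr1) was up-regulated in edgeR, and DESeq2 called Itgam and Cd14 (log2 fold changes of 0.45 and 0.67) higher too. The macrophage list summed to 32150 to 35580 and 33140 to 36310 CPM. Of 7 osteoblast markers tested, 3 were down-regulated (Sp7, Alpl and Ibsp), and their list summed to 10090 to 17230 and 12060 to 20290 CPM, nearly all of it Spp1. The mesenchymal list had 3 genes up-regulated (Col1a1, Col1a2 and Thy1) and 2 down-regulated (Pdgfra and Eng) of 9 in edgeR, and DESeq2 also called Twist1 higher. This list summed to 7451 to 9857 and 12660 to 13480 CPM. In bulk RNA, fewer cells of a type and less RNA per cell cannot be told apart, and the part of these markers in the results on synthesis enzymes and on Nr1h3 was not tested.

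Of the smaller marker lists, none of the 6 endothelial genes passed the test in edgeR or limma-voom (2 had an unadjusted p under 0.05, and DESeq2 called Cdh5 lower), at sums of 29.3 to 43.3 and 27.9 to 33.0 CPM. The 10 proliferation genes all had a log2 fold change below 0, and 6 had an unadjusted p under 0.05, as 21.4% of all genes did. In edgeR Ccnb1 was down-regulated, and DESeq2 called Mki67, Top2a and Ccna2 lower too. The list summed to 366 to 488 and 292 to 339 CPM. Neutrophil genes were nearly absent, at sums of 1.00 to 1.14 and 1.30 to 1.98 CPM, with 1 of 2 tested, S100a8, up-regulated. The part of proliferation in the enzyme results was not tested either.

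Beyond the 31 genes, 79 others of the surrounding pathways were followed, of which 75 were tested. Of these, 6 were up-regulated, where 2.88% of all genes were, and 4 down-regulated, where 4.51% were. Their median log2 fold change was 0.013. The median of the 18 enzymes was 0.43, and the difference between the medians was not tested.

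Among 12 genes of the prenyl and dolichol branches, which use farnesyl diphosphate for other ends, Nus1, a subunit of the dolichol-making prenyltransferase, was up-regulated, at 140.0, 153.6 and 131.3 against 187.8, 188.4 and 182.8 CPM (log2 fold change 0.40, adjusted p = 0.0342). The farnesyltransferase subunit Fnta had a log2 fold change of -0.31 (adjusted p = 0.0740). Of 10 genes that process or degrade SREBPs and their partners, none passed the test in edgeR, DESeq2 or limma-voom. An unadjusted p under 0.05 was found for 1 of them, and for 21.4% of all genes.

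Uptake brings cholesterol in from lipoproteins, which lysosomes then unload. Of 8 genes for this tested, none passed in edgeR, while 4 had an unadjusted p under 0.05 (21.4% of all genes did), DESeq2 called 3 (Lrp8, Msr1 and Lipa) and limma-voom 1 (Lipa). These 3 were named after their values had been seen. Lipa, the lysosomal acid lipase, was at 1111, 1203 and 1288 CPM in fl/fl against 962.2, 926.0 and 944.3 CPM in Cre;fl/fl MSCs, with a log2 fold change of -0.35 (adjusted p = 0.0572 in edgeR). Lrp8, a lipoprotein receptor, was at 35.3, 32.3 and 38.2 against 46.6, 45.7 and 47.2 CPM, with a log2 fold change of 0.40 (adjusted p = 0.05004 in edgeR, just above the threshold). Msr1, a macrophage scavenger receptor, was at 140.7, 170.1 and 230.7 against 257.9, 317.8 and 268.6 CPM, with a log2 fold change of 0.64 (adjusted p = 0.0678). The groups did not overlap in any of the 3, as in 15.0% of all genes upward and 15.7% downward.

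SREBP1 drives fatty acid synthesis, and of 12 genes on that side 1 was up-regulated and 1 down-regulated in edgeR, while DESeq2 also called Acaca lower (log2 fold change -0.32, adjusted p = 0.0578 in edgeR). Scd1, the stearoyl-CoA desaturase, fell from 402.6, 361.3 and 543.3 CPM in fl/fl to 167.1, 147.0 and 164.3 CPM in Cre;fl/fl MSCs, with a log2 fold change of -1.45 (SE 0.15, adjusted p = 0.00101). Elovl5, which elongates polyunsaturated fatty acids, rose from 121.9, 127.1 and 130.6 to 163.0, 157.6 and 156.9 CPM (log2 fold change 0.33, adjusted p = 0.0439). The list thus held genes that moved in both directions, at a median of 0.072. Scd1 is abundant in adipocytes and is also a target of LXR, and the adipocyte markers that fell are given above.

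Of 17 genes of sterol transfer and esters, 2 were up-regulated, where 2.88% of all genes were, and 1 down-regulated, where 4.51% were. Cav1, the coat protein of caveolae, rose from 110.1, 117.2 and 143.2 to 176.0, 179.2 and 176.0 CPM (log2 fold change 0.52, adjusted p = 0.0271). Scp2, the sterol carrier of peroxisomes, was at 187.6, 181.5 and 127.1 against 104.4, 114.2 and 107.8 CPM (log2 fold change -0.60, adjusted p = 0.0445), with control replicate 3 nearest to the other genotype, and limma-voom did not call it. The third gene was Osbpl8, a lipid exchanger of the endoplasmic reticulum, with a log2 fold change of 0.45 (adjusted p = 0.0464), which was named after its value had been seen.

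Of 10 LXR partners and further LXR targets, 1 was up-regulated, Arl4c, a small GTPase, at 68.1, 60.5 and 50.5 against 98.6, 92.9 and 96.4 CPM (log2 fold change 0.69, adjusted p = 0.0105). Abca2, a transporter of the same family as Abca1, had a log2 fold change of 0.21 (adjusted p = 0.231).

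The enzymes that turn cholesterol into oxysterols and bile acid precursors held 3 calls among 6 genes tested. Of these, 2 were down-regulated, where 4.51% of all genes were, and 1 up-regulated, where 2.88% were. Cyp39a1, an oxysterol 7α-hydroxylase, was at 5.02, 4.34 and 4.77 against 2.03, 2.09 and 1.64 CPM (log2 fold change -1.29, adjusted p = 0.00480). Cyp27a1, the sterol 27-hydroxylase, was at 15.0, 13.5 and 13.9 against 9.09, 9.01 and 9.43 CPM (log2 fold change -0.62, adjusted p = 0.0173). Both enzymes were well apart between genotypes. Ch25h, which makes 25-hydroxycholesterol and was named after its value had been seen, went the other way at a low level, 3.89, 3.16 and 2.65 against 7.11, 5.97 and 5.34 CPM (log2 fold change 0.93, adjusted p = 0.0284).

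**Figure D4:**
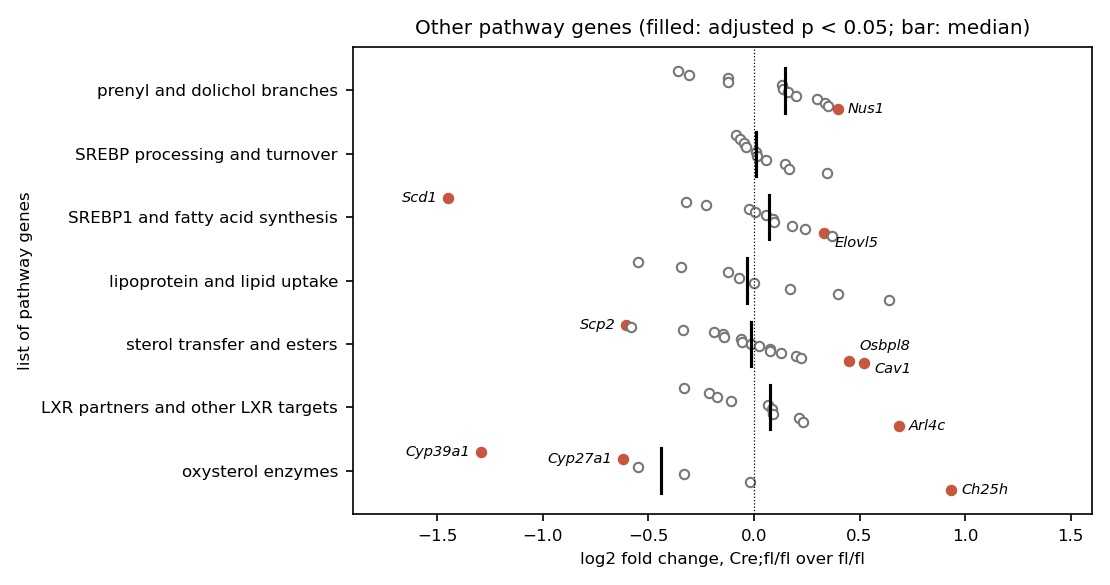
Log2 fold change (horizontal axis) of 75 other genes of sterol and lipid pathways in Cre;fl/fl over fl/fl MSCs, 1 point for each gene in 7 lists (vertical axis), filled red and named for an adjusted p under 0.05, with the median of each list as a black bar. The list medians lie between -0.44, for the oxysterol enzymes, and 0.15, for the prenyl and dolichol branches, and Scd1 at -1.45 and Cyp39a1 at -1.29 are the points farthest to the left.

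The calls differed in how many of the fits without 1 library they passed. Hmgcs1, Fdft1, Cyp51 and Msmo1 passed the test in each of the 14 alternative fits. Sqle lost its call without Cre;fl/fl replicate 1 or 2, at log2 fold changes of 0.56 and 0.53 against 0.55. Lss and Insig1 lost theirs without any one of the 3 Cre;fl/fl libraries. The log2 fold changes in those 3 fits were 0.65 to 0.68 for Lss and 0.57 to 0.69 for Insig1, and calls over all genes went from 1016 to between 472 and 521. Sc5d passed in the absence of fl/fl replicate 3 but of no other library, and Stard4 in the absence of fl/fl replicate 1 or 3. In the fits that lost the call, the log2 fold change was 0.49 to 0.60 for Sc5d and 0.56 to 0.70 for Stard4. Without fl/fl replicate 3 there were 14 of the 31 genes up-regulated and 1 down-regulated, while the calls over all genes rose to 2991. The 14 included Fdps, Idi1, Mvd, Nsdhl and Srebf2. Antisense genes also cover part of the exonic bases of Scap (13.2%), Idi1 (9.22%), Npc1 (5.31%), Cyp51 (3.76%) and Lss (3.53%), and a same-strand transcript covers 1.35% of those of Nr1h3.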

How the data were processed

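RNA selected for poly(A) tails was sequenced from 3 MSC libraries of each genotype, grouped by the sample labels (fl/fl is labelled WT, Cre;fl/fl is labelled Pcif1 CKO). The authors deposited counts of reads per gene with no normalization; reads were mapped to mm10 with HISAT2, and FastQC and DESeq2 also appear in the submitters' processing notes. How reads were assigned to genes (tool, annotation, strand) is not given in the sources used here. Of 20163 deposited rows, 92 repeated an Ensembl ID with the same counts and were used once, and 20059 of 20071 IDs were found in GENCODE M21, which gave positions and exonic lengths.

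The test was edgeR 4.0.16 in R 4.3.3 (filterByExpr, TMM, glmQLFit and glmQLFTest, no covariate) over 13733 genes. A standard error is the log2 fold change over the root of its F statistic. The fit was tested on simulated data in which 200 genes were changed by 1 on the log2 scale. There edgeR recovered 149 of the 197 changed genes it tested, with 14 false calls. DESeq2 recovered 160 of 200 with 41 false calls, and limma-voom 147 of 197 with 11. Depth was 20258209 to 28227696 counts per library, and intervals cover the spread between libraries and counting error. An exact two-sided permutation test of 3 against 3 cannot go below 0.1, so no single value was tested that way.

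The 31 genes, the other lists, the motifs and the tests were chosen with earlier results of these data known. Named are all 31 genes, the 2 genes with the smallest p-values in each other pathway list that has a call, Pcif1, the called markers, and upstream windows of called genes. Acaca, Osbpl8, Ch25h, the uptake genes, the sex-linked genes and the markers without a call in edgeR were named after their values had been seen.

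Alternatives were DESeq2 1.42.0, RLE and total-count scaling, limma-voom (limma 3.58.1), no filter, a mean of at least 10 counts, the replicate number as a block, a minimum log2 fold change, and leaving out each library. A joint correction for transcript length and GC content, with splines of 5 degrees of freedom, was chosen after seeing the data.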

Additional observations from a re-analysis of the deposited data

How the results depend on the processing

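The median log2 fold change of the 18 enzymes was above 0 under every alternative, between 0.40 (total-count scaling) and 0.49 (limma-voom) with all libraries, and 9 to 12 of the 31 genes were up-regulated with all libraries (10 with DESeq2, where calls over all genes were 1423 against 1016, and 12 with the length and GC correction, chosen after seeing the data, where they were 1367). Where a change of 1 on the log2 scale was also required, 0 were up-regulated and 0 down-regulated. With the replicate block, 9 were up-regulated and 0 down-regulated, and calls over all genes went from 1016 to 770. Same-numbered libraries correlated at 0.055, -0.045 and -0.013 after centring within genotype. These values show no pairing by number but, with 3 libraries per genotype, cannot exclude one. Leaving out 1 library gave 4 to 14 up-regulated and 0 to 1 down-regulated genes, the low end (4 or 5) without a Cre;fl/fl library, where calls over all genes were 472 to 521, with an enzyme median of 0.40 to 0.54, the latter without fl/fl replicate 1, and an LXR median of -0.24 to -0.085, the latter without Cre;fl/fl replicate 2. The length and GC correction moved the LXR median from -0.19 to -0.098, and the cause was not tested.

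Signs turned only for genes whose log2 fold change was near 0, and for Ebp. Total-count scaling gave -0.018 for Npc1 and -0.018 for Abca1, and the length and GC correction gave 0.034 for Scap and 0.0042 for Insig2. Leaving out 1 library gave -0.016 to 0.022 for Abca1, -0.0016 to 0.011 for Npc1, -0.063 to 0.00043 for Scap, -0.13 to 0.050 for Insig2, -0.087 to 0.0012 for Nr1h2 and -0.012 to 0.37 for Ebp. Depth limits Fdps most, at 31 to 84 counts.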
